A study of Mus musculus with 10 samples.

Results

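Tug1 and Pvt1 are long non-coding RNAs, RNAs without a long protein-coding reading frame, and both have been tied to cell stress. Their records were found by matching each transcript identifier of the deposited table to a gene symbol in GENCODE release M21 on GRCm38, and all transcripts of either symbol were kept. That gave 8 transcripts of Tug1 and 10 of Pvt1, which are 18 of the 20741 transcripts and 2 of the 14787 genes and assembled loci in the table. The pair was singled out because its mean was higher in Sirt5 knockout samples in earlier results from these same libraries. The genotype differences of both genes and of their isoforms are therefore a description here and carry no test.

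The 4 Sirt5 knockout (KO) samples, replicates 2, 3, 4 and 5, and the 6 wild-type (WT) samples, replicates 1, 3, 4, 5, 6 and 7, were left ventricular tissue of C57BL/6 mice taken 6 weeks after transverse aortic constriction (TAC). TAC bands the aortic arch and loads the left ventricle with pressure, and every animal used here had undergone it, WT included. The design text gives male C57BL/6N mice aged 5 weeks. It names a conventional CRISPR-Cas9 knockout and also a tamoxifen-inducible Cre-ERT2 system with 1 mg of tamoxifen a day for 10 days, then 4 weeks of waiting before surgery. It does not tie either description to an animal, and it names no promoter for the Cre. SIRT5 is a mitochondrial sirtuin that takes acyl marks such as succinyl groups off lysine, and the series asks how it bears on hypertrophy of the loaded heart. It also names more than 1 kit for removing ribosomal RNA and more than 1 sequencing instrument, without tying them to samples. The table held no Sirt5 transcript, so the genotype labels could not be checked. Whether each sample is its own animal is not stated in the labels, and the spread between samples may be technical in part. Tissue was measured in bulk, where fewer cells of a type and less RNA per cell cannot be told apart.

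Tug1 (taurine upregulated gene 1) is a conserved and widely transcribed gene found in the developing mouse retina, and it has been studied as a p53-responsive RNA in human and mouse cells. Its RNA is partly kept in the nucleus as copies that hold on to an intron, and partly exported once spliced. Pvt1 lies next to Myc and was found at the breakpoints of chromosome translocations in mouse plasmacytoma. It is transcribed from many start sites, its promoter can compete with that of Myc for enhancers in human cells, and in mouse cells p53 induces a form that starts from an alternative first exon and lowers Myc. The files tie none of the isoforms below to that form. Both RNAs have been studied in the pressure-loaded or injured heart.

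Tug1 (ENSMUSG00000056579.18) lies at chr11:3639785-3649673 on the minus strand of GRCm38, spans 9889 bases, and is annotated as antisense, with its most upstream transcript overlapping Morc2a on the plus strand by 483 bases. Pvt1 (ENSMUSG00000097039.8) lies at chr15:62037986-62378096 on the plus strand, is annotated as a lincRNA (an RNA from between genes), spans 340111 bases, and starts 47611 bases after the end of Myc. Spliced isoforms were 382 to 6719 bases long in Tug1 and 501 to 3319 bases in Pvt1.

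The most abundant Tug1 isoforms differ by whether the second intron, 1592 bases long, is kept. Tug1-201 has 2 exons and keeps it, and Tug1-203 has 3 exons and has lost it. The boundaries below, read from the GENCODE M21 transcripts on the minus strand of GRCm38, show the bases by which reads could tell these RNAs apart. In Tug1-201 capitals mark the first and the last pair of intron bases, at chr11:3644742-3644801 and chr11:3643150-3643209, and in Tug1-203 they mark the last exon.
Tug1-201 at the intron start: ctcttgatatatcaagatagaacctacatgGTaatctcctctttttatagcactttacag
Tug1-201 at the intron end: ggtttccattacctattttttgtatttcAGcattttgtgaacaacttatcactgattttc
Tug1-203 junction: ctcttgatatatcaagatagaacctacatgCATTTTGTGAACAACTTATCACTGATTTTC
The intron opens with GT and closes with AG, the usual signals of splicing, and has a GC content of 35.1%, against 38.9% in the whole of Tug1-203.

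Tug1-207 keeps the other intron instead. That first intron is 1033 bases long with a GC content of 35.2%, and its ends are shown with the pair of intron bases in capitals, at chr11:3646527-3646586 and chr11:3645494-3645553.
Tug1-207 at the first intron start: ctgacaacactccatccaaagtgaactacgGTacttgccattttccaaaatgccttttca
Tug1-207 at the first intron end: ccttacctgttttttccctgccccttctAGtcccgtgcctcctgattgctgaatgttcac
These boundaries stand in Tug1-207 as unbroken exon.

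Pvt1 isoforms differ mainly at their starts. Pvt1-204 joins the first exon to an exon far downstream, Pvt1-201 joins the same first exon to the second exon, and Pvt1-210 joins another first exon to that second exon. Capitals mark the downstream exon in each of the junctions below, read from GENCODE M21.
Pvt1-201 junction: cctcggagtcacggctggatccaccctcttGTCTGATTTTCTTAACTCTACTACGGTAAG
Pvt1-204 junction: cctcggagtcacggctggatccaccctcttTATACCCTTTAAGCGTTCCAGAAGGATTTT
Pvt1-210 junction: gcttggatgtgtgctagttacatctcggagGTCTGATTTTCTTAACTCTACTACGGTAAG
The capitals of Pvt1-201 and Pvt1-210 are the same bases, and the lower-case bases of Pvt1-201 and Pvt1-204 are the same. Reads that lie within the shared bases do not separate these isoforms.

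An exon pair further downstream is in 9 of the 10 Pvt1 isoforms. The exon that opens the pair, at chr15:62242174-62242301 on the plus strand, is 128 bases long, and capitals mark the 4 bases that Pvt1-204 leaves out at its end.
Pvt1 shared exon: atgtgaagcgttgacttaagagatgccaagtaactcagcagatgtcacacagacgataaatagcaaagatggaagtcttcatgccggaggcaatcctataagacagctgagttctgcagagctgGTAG
Reads from this exon do not separate most isoforms of the gene.

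**Figure D1:**
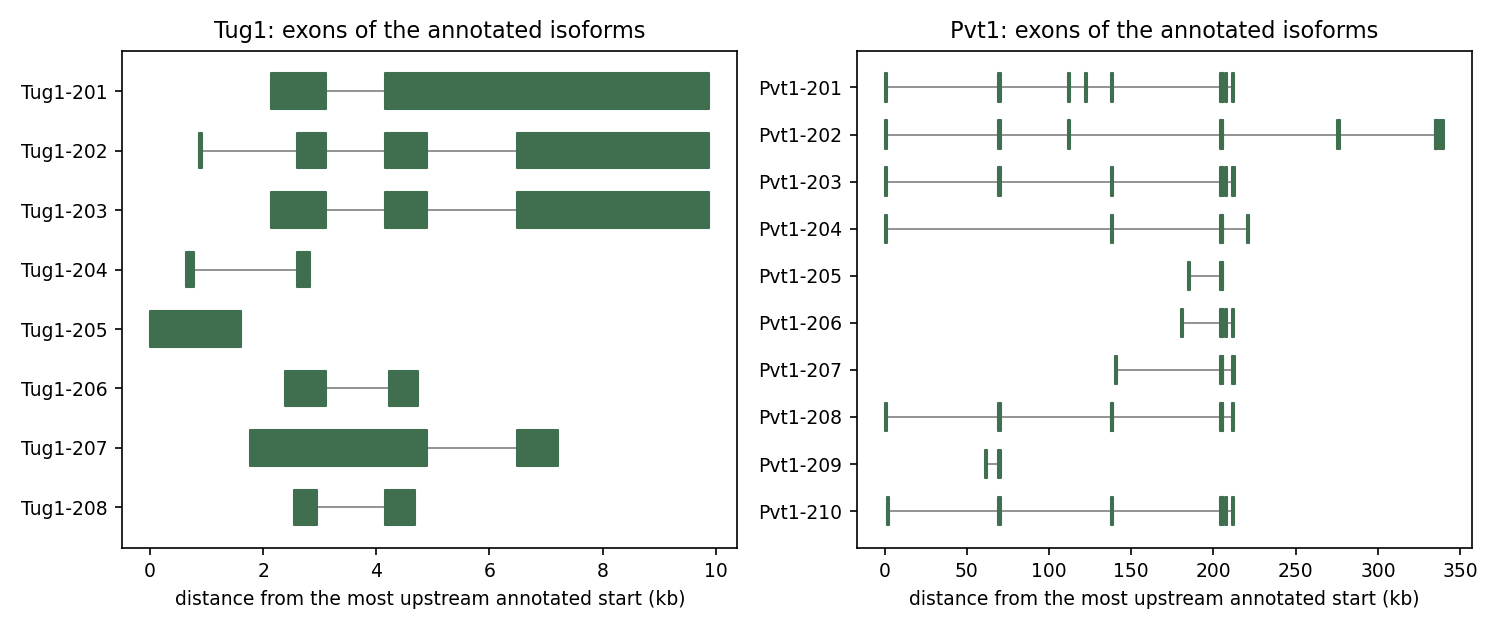
Exon maps of the 8 Tug1 isoforms (left) and 10 Pvt1 isoforms (right), drawn 5′ to 3′ as distance in kb from the most upstream annotated start; boxes are exons, lines are introns, and the shortest exons are widened to stay visible. Tug1-201 keeps the second intron and Tug1-207 the first, and Pvt1 isoforms share the exon pair near the middle of the gene but differ in start and end.

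RefSeq start windows on GRCm38.p6, from 250 bases before to 50 bases after a gene's start, held 1 of the 2 genes, Tug1. The window is shown because Tug1 starts there next to Morc2a. It lies on the minus strand at chr11:3648765-3649064, and its capitals mark a GC box core.
Tug1 RefSeq start window: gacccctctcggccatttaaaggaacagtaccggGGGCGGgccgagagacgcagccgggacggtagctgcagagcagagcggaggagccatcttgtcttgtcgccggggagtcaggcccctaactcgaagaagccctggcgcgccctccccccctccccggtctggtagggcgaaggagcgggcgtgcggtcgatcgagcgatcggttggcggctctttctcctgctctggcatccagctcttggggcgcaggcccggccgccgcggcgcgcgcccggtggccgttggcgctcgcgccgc
The letters GGGCGG occurred 1 time in it on either strand, and 35.7% of the 32851 windows of this length held them. It held 37 CG dinucleotides, and 5.58% of windows held as many. The letters CACGTG (E-box, in 7.15% of windows), CCAAT (37.4%), TATAAA (13.6%) and TGACGTCA (cAMP response element, 1.79%), searched on both strands, were not in this window, and neither was a p53 half-site (8.36%). Tug1-201 starts 1278 bases downstream of this annotated gene start. The isoforms that begin at the upstream starts, Tug1-202, Tug1-204 and Tug1-205, held 2.74% of the Tug1 sum on average, and were above 0 in 2 of 10 samples, KO4 and WT7.

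Values are FPKM, fragment numbers divided by transcript length and by library depth, so levels are per length, and a gene's level is the sum over its isoforms. Library depth, estimated from the smallest steps between low FPKM values, was 22670000 to 29830000 fragments, with 24060000 ± 1310000 in KO and 26660000 ± 2010000 in WT (SD, n = 4 and n = 6), and the part of depth in the results was not tested. KO replicate 5 stood apart: across the 1122 genes and loci with a mean of at least 1 FPKM, log2 values correlated at 0.520 to 0.618 for pairs that included it and at 0.655 to 0.824 for other pairs (across genes, which are not replicates). The RNase MRP RNA Rmrp was listed at 0 in KO5, WT3, WT5 and WT6 and was above 0 in the other 6. Whether the kits or instruments differed between these libraries, or between KO5 and the others, cannot be told from the labels. The heart long non-coding RNAs Mhrt, Hand2os1 and Carmn were above 0 in all 10 samples, at 0.835 to 5.78, 15.4 to 33.4 and 9.42 to 18.0 FPKM, and 0 of 6 coding cardiomyocyte markers looked for were in the table.

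Tug1 was the more abundant RNA of the pair. Its gene sum was 6.20, 9.14, 4.36 and 5.41 FPKM in KO replicates 2, 3, 4 and 5, against 2.78, 2.00, 6.15, 2.97, 3.17 and 4.92 FPKM in WT replicates 1, 3, 4, 5, 6 and 7. KO3 lay above every WT sample, KO2 lay level with WT4, the highest of them, 4 of 6 WT samples lay below every KO sample, and WT4 and WT7 lay within the KO range. The means were 6.28 ± 2.05 FPKM in KO and 3.67 ± 1.55 FPKM in WT (SD, n = 4 and n = 6), a ratio of 1.71 and a difference of 0.66 in mean log2(FPKM + 1). Tug1 ranked 26th of 261 annotated genes with a mean of at least 1 FPKM.

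Pvt1 had gene sums of 1.18, 1.54, 1.67 and 3.27 FPKM in KO replicates 2, 3, 4 and 5, against 1.57, 1.03, 1.30, 1.54, 1.31 and 1.28 FPKM in WT replicates 1, 3, 4, 5, 6 and 7. KO5 was the highest of all 10 samples, KO4 lay just above the highest WT sample, and KO2 lay below 5 of the 6 WT samples. The means were 1.92 ± 0.926 FPKM in KO and 1.34 ± 0.196 FPKM in WT (SD, n = 4 and n = 6), a ratio of 1.43 and a log2 difference of 0.27. Pvt1 ranked 128th of the 261 annotated genes. The KO and WT ranges overlapped for both genes and for all 18 isoforms.

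**Figure D2:**
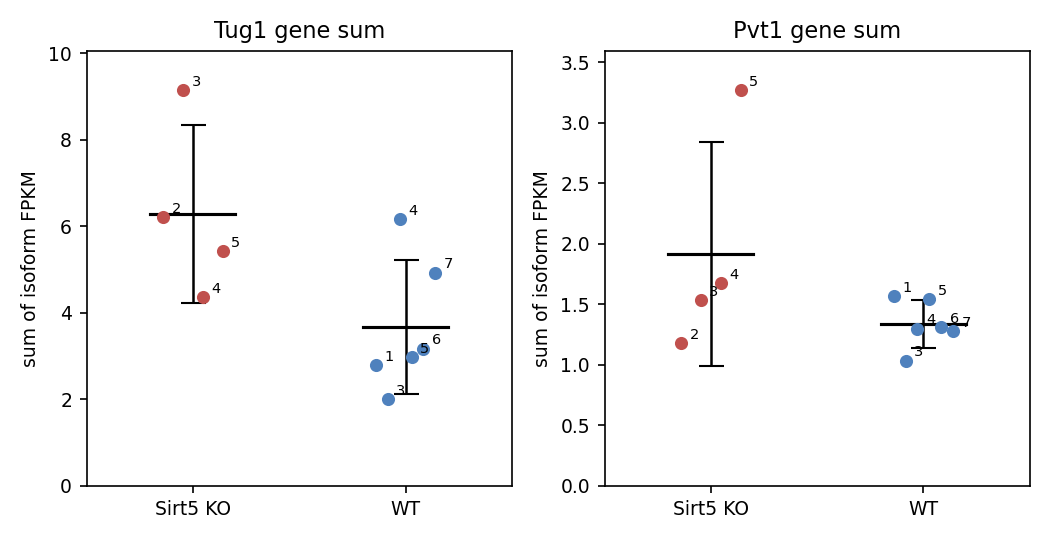
Gene sums of Tug1 (left) and Pvt1 (right) in FPKM, with 1 point per sample labelled by its replicate number, the mean as a horizontal bar and ± 1 SD as whiskers (KO n = 4, WT n = 6). KO replicate 3 is the highest Tug1 sample at 9.14 FPKM and KO replicate 5 the highest Pvt1 sample at 3.27 FPKM.

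Counting error differed widely between the genes. Tug1 rested on an estimated 537 to 1217 fragments per KO sample and 303 to 1091 per WT sample. The exact Poisson 95% interval, averaged over its lower and upper sides, reached 5.66% to 11.4% from the value of a sample. Pvt1 rested on 31.7 to 91.0 fragments per KO sample and 36.0 to 49.6 per WT sample, with intervals reaching 21.1% to 36.5% on the same average. The upper side is the longer, as for Pvt1 in KO2, with 21.7 to 44.9 around 31.7 fragments. These intervals cover counting error only. The Tug1 interval of KO3, 8.63 to 9.67 FPKM, lay above that of WT4, the highest WT sample, at 5.79 to 6.53 FPKM. That of KO2, 5.82 to 6.61 FPKM, overlapped it. In estimated fragments KO2 had 960 against 1091 in WT4. These fragment numbers are not divided by depth, and WT4 was the deepest library. In FPKM, which are divided by depth, KO2 was at 6.20 and WT4 at 6.15. The Pvt1 interval of KO5, 2.63 to 4.01 FPKM, lay above that of WT1, the highest WT sample, at 1.15 to 2.10 FPKM, while the interval of KO4, 1.25 to 2.19 FPKM, overlapped it.

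In the fit over the whole table (limma, log2(FPKM + 1), adjusted p below 0.05), 2 of 1122 genes and loci passed, which is 0.178%, and 0 of these were Tug1 or Pvt1. Transcripts gave 0 calls of 4182, which is 0.0%, by limma at adjusted p below 0.05, and 323 transcripts (7.72%) had an unadjusted p below 0.05. By direction, 0.0891% of genes were called higher in KO and 0.0891% lower. Groups that did not overlap were seen in 3.21% of genes (1.07% higher and 2.14% lower in KO) and 1.65% of transcripts (0.526% higher and 1.12% lower), and in 0 of the 2 genes and 18 isoforms described here. The median log2 difference over all tested genes was -0.03, and 44.5% had a higher mean in KO. Since the pair was chosen on this contrast, nothing is read from its place among these numbers.

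The Tug1 sum was carried by the isoforms with and without the second intron. Tug1-201, which keeps it, held 53.5% of the sum on average, and Tug1-203, the fully spliced form, held 33.8%, together 87.4%. Tug1-201 led in 6 of 10 samples (2 KO and 4 WT) and Tug1-203 in 4 (2 KO and 2 WT). The share of Tug1-201 was 48.9 ± 18.0% in KO and 56.6 ± 13.6% in WT, and that of Tug1-203 was 37.7 ± 22.8% in KO and 31.3 ± 9.35% in WT (SD, n = 4 and n = 6), and both gaps are smaller than the SD of the WT samples.

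Tug1-201 stood at 4.50, 3.16, 2.33 and 1.90 FPKM in KO replicates 2, 3, 4 and 5, against 1.71, 1.31, 4.10, 1.31, 2.13 and 1.73 FPKM in WT replicates 1, 3, 4, 5, 6 and 7. KO2 was the highest, next to WT4, and 4 of 6 WT samples lay below every KO sample. Its means were 2.97 ± 1.14 FPKM in KO and 2.05 ± 1.05 FPKM in WT, a log2 difference of 0.40, and it made up 35.5% of the difference between the gene means. It was the best counted isoform, at 222 to 821 estimated fragments a sample, and 1601 of its bases are in no other isoform.

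Tug1-203 stood at 0.707, 5.53, 1.14 and 2.85 FPKM in KO replicates 2, 3, 4 and 5, against 0.752, 0.602, 1.25, 1.40, 0.859 and 1.77 FPKM in WT replicates 1, 3, 4, 5, 6 and 7. KO3 and KO5 lay above all WT samples, and KO2 and KO4 lay within the WT range. Its means were 2.56 ± 2.19 FPKM in KO and 1.11 ± 0.446 FPKM in WT, a log2 difference of 0.58, and it made up 55.5% of the difference between the gene means. That percentage rested largely on KO3. Without KO3 the Tug1-203 mean in KO was 1.56 ± 1.13 FPKM, while the gene mean in KO was 5.32 ± 0.926 FPKM. The log2 difference without KO3 was 0.22 for Tug1-203 and 0.36 for Tug1-201, so their order depended on this library. Tug1-203 has 0 bases of its own, so its level rests on splice junctions and on what the estimate leaves after the other isoforms, at 78.0 to 681 fragments a sample.

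The KO samples with the most Tug1-201 and the most Tug1-203 were different libraries. KO2 had 72.5% of its Tug1 sum in the intron-keeping form, and KO3 had 60.5% of its sum in the fully spliced form. All isoforms that splice out the second intron together (Tug1-202, Tug1-203 and Tug1-207) held 44.1 ± 17.7% in KO and 37.0 ± 10.5% in WT.

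**Figure D3:**
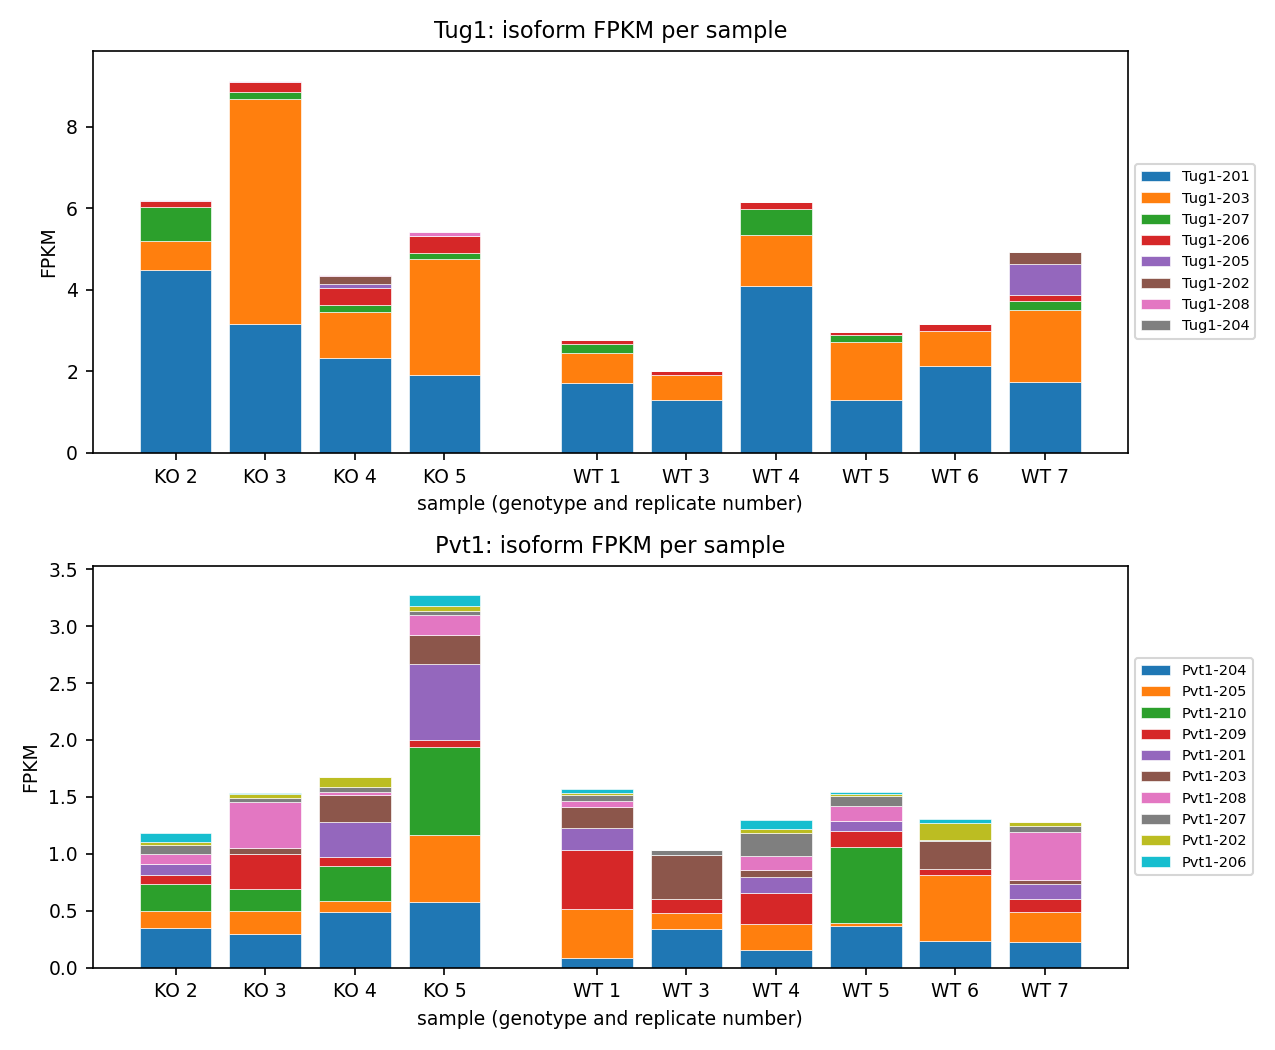
Stacked isoform FPKM per sample for Tug1 (top) and Pvt1 (bottom), KO samples left and WT samples right, with isoforms stacked in order of their mean. Tug1 is mostly Tug1-201 and Tug1-203 in every sample, while the isoform with the most FPKM in Pvt1 changes from sample to sample.

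The remaining Tug1 isoforms were scarce. Tug1-206, a short form of 2 exons within the first part of the gene, had 0.165, 0.236, 0.433 and 0.429 FPKM in KO replicates 2, 3, 4 and 5, against 0.0671 to 0.175 FPKM in WT with a median of 0.143 FPKM. KO3, KO4 and KO5 lay above all WT samples and KO2 within their range. The means were 0.316 ± 0.136 FPKM in KO and 0.133 ± 0.0454 FPKM in WT, a log2 difference of 0.21 from 2.14 to 12.6 estimated fragments a sample, and all of its bases are in other isoforms too.

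Tug1-207, which keeps the first intron, was at 0.821, 0.170, 0.156 and 0.152 FPKM in KO replicates 2, 3, 4 and 5, and at 0 to 0.634 FPKM in WT with WT4 the highest. KO2 and WT4 were thus the highest of their genotypes for both intron-keeping isoforms. The means were 0.325 ± 0.331 FPKM in KO and 0.207 ± 0.232 FPKM in WT, a log2 difference of 0.13.

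Tug1-208 was above 0 in 4 of 4 KO samples and 1 of 6 WT samples, with a highest value of 0.0848 FPKM, under 2 estimated fragments. Tug1-202 was above 0 in KO4 (0.191 FPKM) and WT7 (0.285 FPKM) and listed at 0 in the other 8. Tug1-205, the transcript that overlaps Morc2a on the opposite strand, was above 0 in the same samples, at 0.0867 FPKM in KO4 and 0.752 FPKM in WT7. The sources used here do not say whether read strand entered the estimate, and reads of Morc2a may be part of this value. Tug1-204 was listed at 0 in all 10 samples. In all, 6 Tug1 isoforms had the higher mean FPKM in KO and 1 in WT, and this tally includes isoforms below the 0.1 FPKM filter. Of all tested transcripts, 46.2% had the higher mean log2 value in KO. Tug1 was chosen on this contrast and its isoforms share bases, so nothing is read from these numbers.

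**Figure D4:**
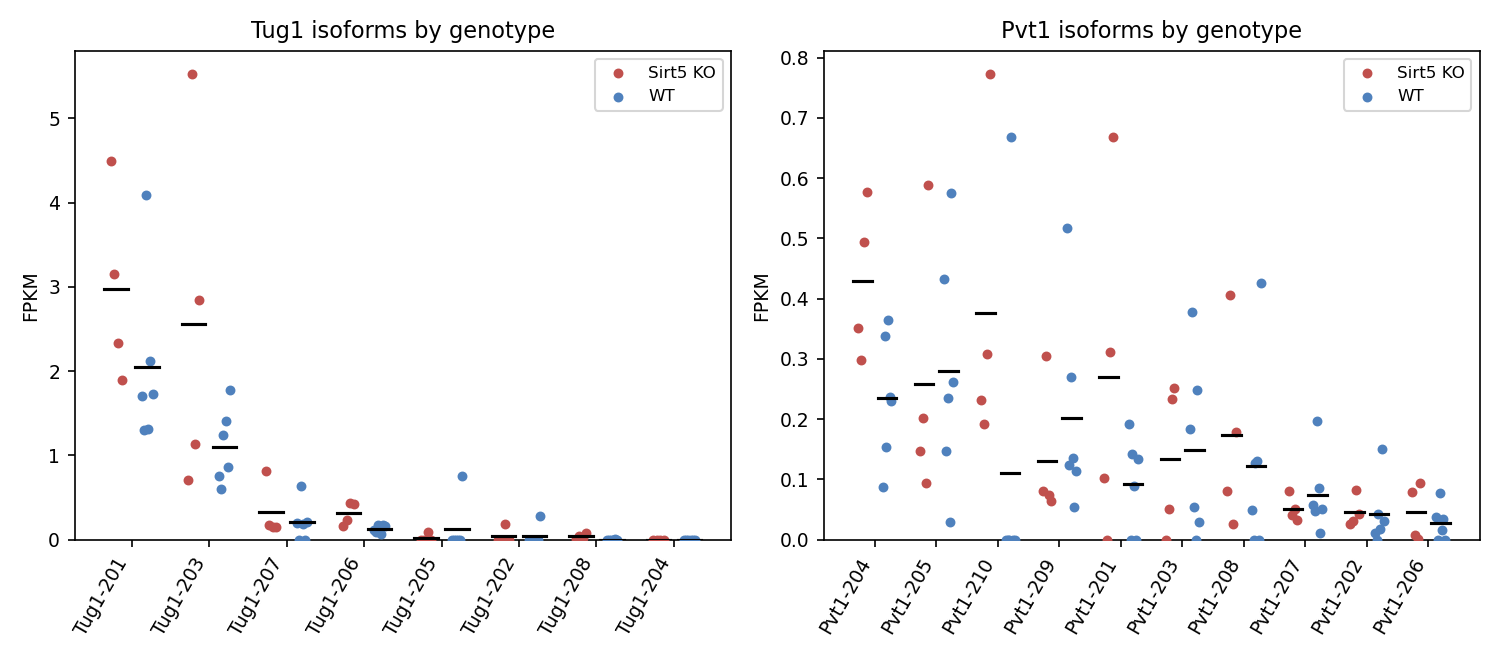
FPKM of each Tug1 isoform (left) and Pvt1 isoform (right), with 1 point per sample, KO left of WT at each isoform and bars at the means (KO n = 4, WT n = 6). Points of the genotypes overlap at every isoform, and the scale on the right is smaller than on the left.

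No Pvt1 isoform carried most of its sum. Pvt1-204, a form of 5 exons, held 20.6% on average and Pvt1-205, which starts inside the gene, 17.5%, together 38.1%, and 6 different isoforms led in at least 1 sample. Pvt1-204 led in KO2 and KO4, Pvt1-208 in KO3 and WT7, Pvt1-210 in KO5 and WT5, Pvt1-209 in WT1 and WT4, Pvt1-203 in WT3 and Pvt1-205 in WT6. Counted in fragments instead of FPKM, the mean share of Pvt1-204 was 12.2%. Per isoform the counts were small: the median sample had 5.63 estimated fragments of Pvt1-204 (715 bases) and 8.97 of Pvt1-203 (2798 bases). Less than 1 fragment, but more than 0, was given to 4 isoforms, each in at least 1 sample. The leading isoform was therefore not resolved at this depth.

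Pvt1-204 stood at 0.351, 0.299, 0.494 and 0.576 FPKM in KO replicates 2, 3, 4 and 5, against 0.0875, 0.338, 0.154, 0.365, 0.237 and 0.230 FPKM in WT replicates 1, 3, 4, 5, 6 and 7. KO4 and KO5 lay above all WT samples, and 4 of 6 WT samples lay below every KO sample. Its means were 0.430 ± 0.128 FPKM in KO and 0.235 ± 0.106 FPKM in WT, a log2 difference of 0.21. Its difference in mean FPKM was 33.8% of the difference between the gene means. It ends in a last exon of its own, and 217 of its 715 bases are in no other isoform.

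Pvt1-210, the form that joins another first exon to the second exon, was at 0.232, 0.191, 0.308 and 0.773 FPKM in KO replicates 2, 3, 4 and 5. In WT it was at 0.669 FPKM in replicate 5 and listed at 0 in the other 5 samples. The means were 0.376 ± 0.269 FPKM in KO and 0.111 ± 0.273 FPKM in WT, a log2 difference of 0.32. The Pvt1-210 difference in mean FPKM was 45.8% of the difference between the gene means. That percentage was 30.7% for Pvt1-201 and fell below 0 where KO was lower, as for Pvt1-209 at -12.3%. All these percentages use KO5, without which the gene means were 1.46 FPKM in KO and 1.34 FPKM in WT. No sample had more than 19.2 estimated fragments of Pvt1-210, and WT5 lay above 3 of 4 KO samples.

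Pvt1-201, a form of 9 exons from the first exon to the common last exon, was at 0.102, 0, 0.312 and 0.668 FPKM in KO replicates 2, 3, 4 and 5, and at 0 to 0.193 FPKM in WT with a median of 0.112 FPKM. KO4 and KO5 lay above all WT samples and KO3 was listed at 0. The means were 0.271 ± 0.295 FPKM in KO and 0.0931 ± 0.0792 FPKM in WT, a log2 difference of 0.19.

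The other Pvt1 isoforms differed little between genotypes or ran the other way. Pvt1-209, which ends soon after the second exon, averaged 0.131 ± 0.116 FPKM in KO and 0.202 ± 0.169 FPKM in WT, a log2 difference of -0.08. Pvt1-205 averaged 0.258 ± 0.225 FPKM in KO and 0.280 ± 0.196 FPKM in WT. Pvt1-208 averaged 0.173 ± 0.167 FPKM in KO and 0.122 ± 0.159 FPKM in WT, and its highest samples were WT7 at 0.425 FPKM and KO3 at 0.405 FPKM. Pvt1-203 averaged 0.134 ± 0.127 FPKM in KO and 0.149 ± 0.148 FPKM in WT, and Pvt1-202, Pvt1-206 and Pvt1-207 averaged at most 0.0750 FPKM in either genotype. In all, 6 Pvt1 isoforms had the higher mean FPKM in KO and 4 in WT, and as for Tug1 nothing is read from this tally.

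Pvt1 isoforms were also summed by the structure they share. The 5 isoforms with the first exon summed to 0.561, 0.787, 1.15 and 1.72 FPKM in KO replicates 2, 3, 4 and 5, against 0.521 to 0.850 FPKM in WT with a median of 0.619 FPKM. KO4 and KO5 lay above all WT samples, and KO2 and KO3 lay within their range. They made up 54.9 ± 9.31% of the sum in KO and 49.5 ± 15.1% in WT, and the 5 isoforms with an internal or alternative start made up the remaining 45.1% in KO and 50.5% in WT. The 6 isoforms that hold the second exon summed to 1.13 ± 0.611 FPKM in KO and 0.721 ± 0.239 FPKM in WT. The 9 isoforms with the exon pair made up 87.9% over all samples, and the 6 that end in the common last exon made up 52.7 ± 7.01% in KO and 42.9 ± 14.4% in WT. The shares given differed between genotypes by less than the SD of the WT samples.

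Leaving out 1 sample at a time kept the sign of both gene differences and changed their size. For Tug1 the log2 difference was 0.66 with all samples, 0.49 without KO3 and 0.80 without WT4, the lowest and the highest of the 10 values. Without KO3 the KO mean was 5.32 ± 0.926 FPKM (n = 3), against 3.67 ± 1.55 FPKM in WT (n = 6). No single library brought the Tug1 difference under 0.49.

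For Pvt1 the log2 difference was 0.27 with all samples, 0.07 without KO5 and 0.40 without KO2. Without KO5 the KO mean was 1.46 ± 0.254 FPKM (n = 3), against 1.34 ± 0.196 FPKM in WT (n = 6), a gap smaller than either SD. The Pvt1 difference therefore rested on KO5, the library that also stood apart over the whole table. In KO5 the nuclear RNA Malat1 was at 951 FPKM, against 58.4 to 81.8 FPKM in the other 9 samples. The part of whatever sets that library apart in the Pvt1 value was not tested.

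Among Tug1 isoforms, the log2 difference of Tug1-203, 0.58 with all samples, became 0.22 without KO3 and 0.87 without KO2. That of Tug1-201 ran from 0.23 without KO2 to 0.56 without WT4. Tug1-206 kept to between 0.17 and 0.27. The difference of Tug1-207 turned to -0.04 without KO2, and that of Tug1-205, -0.10 with all samples, turned to 0.03 without WT7. Tug1-202, at 0.00 with all samples, was negative in 6 of the 10 cases.

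Among Pvt1 isoforms, the difference of Pvt1-201 became 0.05 without KO5, and that of Pvt1-210 became 0.19 without KO5 and 0.44 without WT5. Pvt1-204 was the steadiest of the more abundant ones, at 0.16 to 0.26, and it stayed at 0.16 without KO5. Pvt1-205, at -0.03 with all samples, was -0.14 without KO5, and that of Pvt1-208, at 0.06, turned to -0.03 without KO3.

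**Figure D5:**
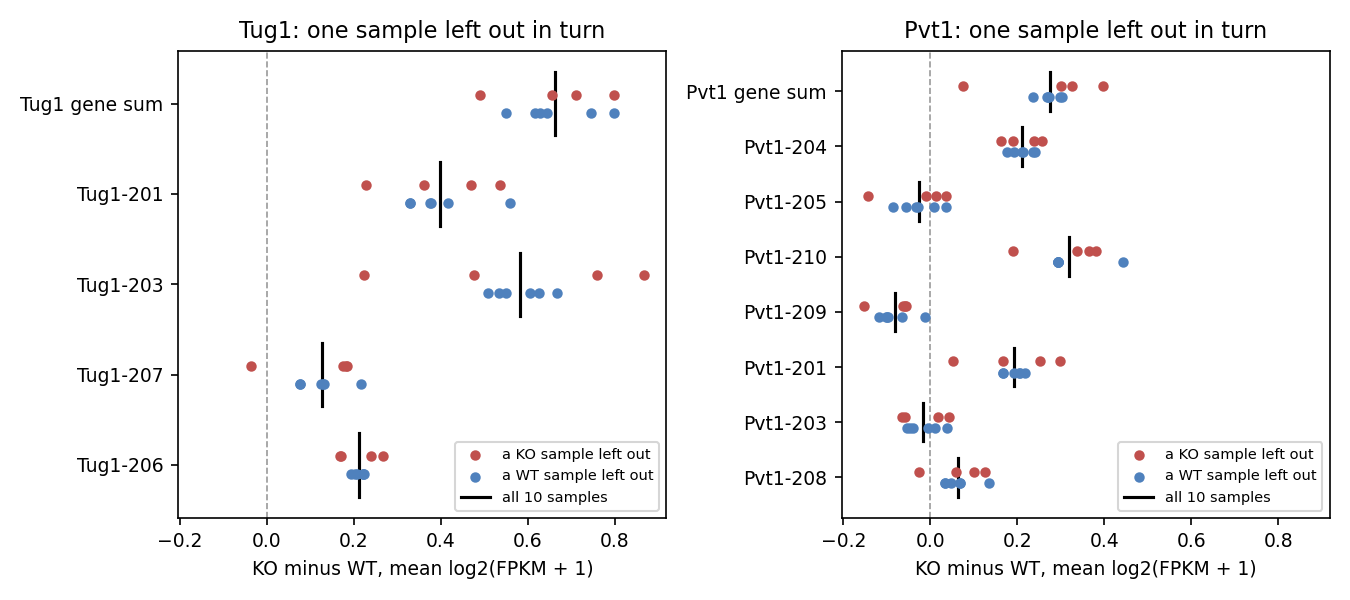
Difference of mean log2(FPKM + 1), KO minus WT, for the gene sums and the isoforms with a mean of at least 0.1 FPKM; black bars use all 10 samples, and each point leaves out 1 KO sample (red) or 1 WT sample (blue). The Tug1 sum stays between 0.49 and 0.80, while the Pvt1 sum reaches 0.07 with KO replicate 5 left out.

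The values were also taken within the libraries split by Rmrp. Where Rmrp was above 0, Tug1 averaged 6.57 ± 2.41 FPKM in KO and 4.62 ± 1.71 FPKM in WT (n = 3 each), a log2 difference of 0.43. Where it was listed at 0, Tug1 was at 5.41 FPKM in the only KO sample, KO5, against 2.71 ± 0.622 FPKM in WT (n = 3), a difference of 0.80. Pvt1 averaged 1.46 ± 0.254 FPKM in KO and 1.38 ± 0.163 FPKM in WT where Rmrp was above 0, a difference of 0.05, and was at 3.27 FPKM in KO5 against 1.29 ± 0.253 FPKM in WT where it was listed at 0, a difference of 0.90. WT4 and WT7, the WT samples with the most Tug1, were both in the first set, while its other WT sample, WT1, was at 2.78 FPKM.

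Within samples, which does not use the genotype contrast, Tug1 exceeded Pvt1 in 10 of 10. The ratio of the gene sums was 1.66 to 5.95 with a median of 2.51, and the mean log2 ratio was 1.53 ± 0.70 (SD, n = 10; exact sign-flip permutation test, two-sided, p = 0.00195, the smallest it can give). KO3 had the highest ratio and KO5 the lowest, and both are KO samples.

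The genes did not vary together detectably among the 6 WT samples. Over them log2 values of Tug1 and Pvt1 gave a Pearson r of 0.11 (exact permutation p = 0.9, adjusted 0.919) and a Spearman rho of -0.09 (exact permutation p = 0.919, adjusted 0.919), with p adjusted over these 2 relations. Without WT7 and WT4, the samples farthest from the Tug1 median, r was 0.75 over 4 samples (exact permutation p = 0.5), and without WT3 it was -0.75 over 5 (exact permutation p = 0.0667). At this number of samples neither a positive nor a negative relation could be told from none.

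Other long non-coding RNAs tied to p53 and DNA damage did not pass the test. Of 13 names listed, 12 were in the table and 9 were tested, and synonyms among the names were not merged. Of these, 6 had the higher mean in KO and 3 in WT, beside 44.5% of all genes higher. In limma 0 passed at adjusted p below 0.05, beside 0.178% of all genes, and 1 had an unadjusted p below 0.05, beside 11.7%. The median log2 difference was 0.31, against -0.03 over all genes tested, and without KO5 it was -0.05 with 4 of 9 higher in KO. The lowest adjusted p was that of Epb41l4aos, at 1.03 ± 0.320 FPKM in KO and 1.98 ± 0.763 FPKM in WT (log2 difference -0.52, SE 0.19, limma adjusted p = 0.393).

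Within that list, Neat1, the scaffold of nuclear paraspeckles, was at 0.275, 0.00429, 3.08 and 9.02 FPKM in KO replicates 2, 3, 4 and 5, and at 0.120 to 0.756 FPKM in WT (log2 difference 0.94, SE 0.56, limma adjusted p = 0.572), and its difference was 0.31 without KO5. KO5 and KO4 lay above all WT samples and KO3 below them all. Meg3, an imprinted RNA, averaged 3.84 ± 2.90 FPKM in KO and 2.14 ± 0.851 FPKM in WT (log2 difference 0.51, and 0.15 without KO5), with KO5 at 7.92 FPKM. The p53-induced Lncpint, at -0.08, Gas5, which accumulates in arrested cells, at -0.05, and Mir22hg, a microRNA host, at 0.02 had log2 differences close to that of all genes, and without KO5 they were at -0.05, -0.24 and -0.16 in the same order.

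Of 16 listed RNAs tied to cardiac stress or heart identity, 15 were in the table and 11 were tested. Of these, 7 had the higher mean in KO and 4 in WT, beside 44.5% of all genes higher. In limma 0 passed at adjusted p below 0.05, beside 0.178% of all genes, and 1 had an unadjusted p below 0.05, beside 11.7%. The median log2 difference was 0.31, and 0.10 without KO5 with 7 of 11 higher. Bvht, a heart lineage RNA, averaged 1.71 ± 0.271 FPKM in KO and 1.25 ± 0.267 FPKM in WT (log2 difference 0.27, SE 0.11, limma adjusted p = 0.404). Carmn of smooth muscle (-0.39), Hand2os1 opposite Hand2 (-0.29) and Mhrt, antisense to Myh7 (-0.19), had negative log2 differences, and H19 (0.37), Snhg1 (0.31) and Malat1 (0.88) positive ones. Without KO5 these became -0.36 for Carmn, -0.18 for Hand2os1, 0.12 for Mhrt, 0.10 for H19, 0.06 for Snhg1 and -0.06 for Malat1, with Mhrt and Malat1 changing sign. Rmrp had the largest log2 difference of the list, 2.35 (SE 2.92, limma adjusted p = 0.789), and 4.81 without KO5, from libraries listed at 0 set against libraries far above 0. The lists overlap in 6 tested RNAs.

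No annotated neighbour in the table reached the level needed for the test. Within 1 Mb of Tug1 lay 11 genes of the table, 9 of them above 0 in a sample. The most abundant, 8430429K09Rik, averaged 0.496 ± 0.0993 FPKM in KO and 0.580 ± 0.398 FPKM in WT. Gm11944 averaged 0.430 ± 0.0764 FPKM in KO and 0.496 ± 0.130 FPKM in WT, and Gm11948 averaged 0.376 ± 0.335 FPKM in KO and 0.191 ± 0.175 FPKM in WT. Within 1 Mb of Pvt1 lay 10 genes, 3 of them above 0, and the highest, Gm38563, averaged 0.0292 FPKM in KO and 0.0270 FPKM in WT. Morc2a and Myc were not in the table, so nothing can be said of the levels of these neighbours.

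After each genotype's mean was removed, the annotated genes most like Tug1 over the 10 samples, of 260 compared, were 9330158H04Rik (Pearson r 0.85), Gm42480 (0.79), Gm44949 (0.78), Gm30735 (0.78) and BC065397 (0.77). These r were 0.78 to 0.85 without KO5. Those most like Pvt1 were 1600020E01Rik (0.93), 1110046J04Rik (0.90), Gm12840 (0.90), Ifi30 (0.86) and Ftx (0.86). Without KO5 these became 0.78, 0.75, 0.66, 0.11 and 0.71, so the likeness of Ifi30 rested on that library. Tug1 and Pvt1 themselves had r = -0.12, and 0.00 without KO5. These values describe variation across the same libraries and carry no test.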

How the data were processed

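Long non-coding RNA was measured in 4 Sirt5 knockout and 6 wild-type samples of left ventricle after TAC. The deposited values are FPKM per transcript. Per the labels' protocols and the design text, the authors removed ribosomal RNA (with more than 1 kit and instrument named and none tied to samples), mapped reads to GRCm38 with HISAT2, and StringTie 1.2.0 gave the FPKM. The sources used here give no HISAT2 version. Counts by HTSeq 0.6.1 are named there and were not used. StringTie divides the reads of overlapping isoforms by estimation, so isoform values are less certain than gene sums.

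Of 20741 transcripts, 19112 had Ensembl identifiers, and 18969 of these matched GENCODE M21. FPKM were summed per gene. Values were compared as log2(FPKM + 1), which understates changes of low genes. The fit over the table used limma 3.58.1 in R 4.3.3 with moderation along mean intensity, Benjamini-Hochberg adjustment and no covariate beside genotype. It took 1122 genes and loci with a mean of at least 1 FPKM and 4182 transcripts with a mean of at least 0.1 FPKM. It was also run on simulated data, with independent normal log2 values around the real means and no library set apart as KO5 was. Other values were computed in Python 3.11.15 with pandas 2.3.3. Depth was estimated from the FPKM step of 1 fragment in single-exon genes, where 67.8% to 76.9% of low values came out whole within 0.05 of a fragment, so fragment numbers are approximate and no count test was run. All p-values are two-sided.

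The members and the RNA lists were chosen with earlier results of these data known. Besides the isoforms of both genes, the listed RNAs with a mean of at least 1 FPKM, the neighbours within 1 Mb and the 5 most similar annotated genes could be named. Alternatives covered the pseudocount, scaling, filters, a replicate block and each sample left out, and the split by Rmrp and the gene sums in fragments were added after seeing the data.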

Additional observations from a re-analysis of the deposited data

Results flagged for a closer look

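In 12 of 42 groups of values examined (gene sums, isoforms and shares of the leading isoforms, by genotype), 1 sample lay farther from its neighbours than Dixon's 95% criterion allows. In 6 of the 12 the other samples were all at 0, where any value above 0 is singled out by construction. The rate of about 1 in 20 that chance gives applies at most to the other 36 groups, of which 6 held such a sample. None of these samples was KO replicate 5.

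Among Tug1 isoforms, Tug1-201 was at 4.10 FPKM in WT4 and at 1.31 to 2.13 FPKM in the other WT samples. Tug1-207 was at 0.821 FPKM in KO2 (0.152 to 0.170 FPKM in the other KO samples) and at 0.634 FPKM in WT4 (0 to 0.216 FPKM in the others). Tug1-202 was at 0.191 FPKM in KO4 and 0.285 FPKM in WT7, Tug1-205 at 0.0867 FPKM in KO4 and 0.752 FPKM in WT7, and Tug1-208 at 0.0105 FPKM in WT6, with 0 in the other samples of the same genotype for Tug1-202 and Tug1-205 and in the other WT samples for Tug1-208.

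Among Pvt1 isoforms, Pvt1-209 was at 0.305 FPKM in KO3 (0.0646 to 0.0811 FPKM in the other KO samples). Pvt1-202 was at 0.150 FPKM in WT6 (0 to 0.0423 FPKM in the other WT samples), Pvt1-208 at 0.425 FPKM in WT7 (0 to 0.131 FPKM), and Pvt1-210 at 0.669 FPKM in WT5 (0 in the others).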

How the results depend on the processing

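The Tug1 gene difference (0.66) and that of Tug1-201 (0.40) kept their direction in all alternatives run, at 0.43 to 0.80 and 0.18 to 0.56, and with 1 sample left out at 0.49 to 0.80 and 0.23 to 0.56. The Pvt1 gene difference (0.27) stayed positive, at 0.05 in libraries with Rmrp above 0 and 0.07 to 0.40 with 1 sample left out. In libraries with Rmrp listed at 0, where KO5 is the only KO sample, the difference was 0.90 for Pvt1 and 0.18 for Tug1-201. That of Pvt1-204 (0.21) was 0.70 with a pseudocount of 0.1, which raises log2 differences of low values by construction, and 0.16 to 0.26 with 1 sample left out. The mean shares of the leading isoforms were 51.4% to 55.6% for Tug1-201 and 19.3% to 22.3% for Pvt1-204 with 1 sample left out, and 62.9% and 12.2% when counted in fragments. The log2 ratio of Tug1 to Pvt1 ran from 1.09 to 2.99 (exact permutation p = 0.00195 to 0.00391). The correlation of the genes in WT, 0.11, became -0.55 between the leading isoforms and ran from -0.75 to 0.32 with 1 sample left out (exact permutation p = 0.0667 to 0.933 over all alternatives). Over the table, 2 genes passed; 4 did after quantile normalization, 7 after rescaling to a common FPKM sum, 1 at a mean of at least 0.1 FPKM, 0 without a filter and 1 to 3 with 1 sample left out. For transcripts, 0 passed, 2 did at a mean of at least 1 FPKM, and 0 to 1 with 1 sample left out. The cause of these changes was not tested. Rescaling to a common sum moved the median of all genes from -0.03 to -0.14, and on that scale Tug1 was at 0.52 and Pvt1 at 0.17. Samples with the same number (3, 4 and 5) deviated with correlations of -0.16, 0.18 and 0.08, and not every sample correlated best with its own number, so the numbers were not taken as pairs. With a replicate block over them, 0 genes passed, Tug1 was at 0.68, Tug1-201 at 0.19, Pvt1 at 0.43 and Pvt1-204 at 0.18. That fit used only the samples numbered 3, 4 and 5 and left out KO2, WT1, WT6 and WT7. It therefore differs from the main fit in samples as well as in the block. At 5.63 estimated fragments in the median sample, depth limits what can be said of Pvt1-204.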
